A study of Mus musculus with 8 samples.

Results

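The receptor systems for 3 circulating signals of the endothelium, the lipid sphingosine 1-phosphate (S1P) and the peptides adrenomedullin and apelin, were measured in thoracic aortic endothelium after deletion of Mef2c. The 9 genes were the S1P receptor genes S1pr1, S1pr2 and S1pr3, the adrenomedullin receptor genes Calcrl, Ramp2 and Ramp3, the ligand genes Adm and Apln, and the apelin receptor gene Aplnr. They were taken by symbol from the 30063 genes on the array that a probe set names singly, and each of the 9 had 1 probe set. The mice with induced deletion (EKO, n = 4) were Cdh5-CreERT2+; Mef2c f/f females given 5 daily injections of tamoxifen at 10 weeks of age, and the control mice (n = 4) were female littermates of the same genotype given the vehicle, sunflower seed oil with 10% ethanol. Tissue was collected 14 days after injections began, and each Mouse Transcriptome Array held RNA from a single aorta, collected by flushing TRIzol through its lumen. The endothelial Cdh5 promoter drives the recombinase in all 8 mice, and tamoxifen reached the EKO mice alone, so the effects of deletion and of the drug cannot be told apart.

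As background, S1P in blood signals through G protein-coupled receptors on endothelium. S1PR1 couples to the inhibitory Gi proteins and strengthens the barrier, while S1PR2 and S1PR3 also couple to other classes of G protein. Adrenomedullin, a vasodilator, binds the calcitonin receptor-like receptor (Calcrl) only when that receptor is joined to a receptor activity-modifying protein, RAMP2 or RAMP3, and loss of this system in mice disturbs blood and lymph vessels. Apelin and its receptor guide vessel growth and widen arteries, and Apln is known from tip cells of sprouting vessels.

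MEF2C acts by binding a short AT-rich sequence, so the 250 bases before the start of each gene, given by RefSeq on GRCm38.p6, were searched for the MEF2 consensus motif. The motif reads the same on both strands. A window was found for 6 of the 9 genes (Adm, Apln, Calcrl, Ramp3, S1pr2 and S1pr3), and 1 of them, S1pr3, held a match, against 2.92% of all 32851 windows. The windows of S1pr3 and of Calcrl, a gene read far above background, are shown to contrast a window with a match and one without. They lie at chr13:51408368-51408617 on the + strand and chr2:84425267-84425516 on the - strand, are written 5′ to 3′ along the gene, and have the match in capitals, its first base 188 bases before the start.
S1pr3: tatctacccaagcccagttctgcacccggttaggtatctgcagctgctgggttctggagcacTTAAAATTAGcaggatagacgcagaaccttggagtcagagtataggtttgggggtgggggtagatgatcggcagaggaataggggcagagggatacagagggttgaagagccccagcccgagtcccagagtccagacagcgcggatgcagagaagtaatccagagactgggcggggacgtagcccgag
Calcrl: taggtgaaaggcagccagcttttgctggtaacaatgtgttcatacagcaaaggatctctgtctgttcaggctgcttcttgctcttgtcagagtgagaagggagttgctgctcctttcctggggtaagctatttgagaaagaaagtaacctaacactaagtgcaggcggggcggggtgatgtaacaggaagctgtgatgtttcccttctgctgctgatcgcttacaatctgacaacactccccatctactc
A match describes these letters and is not a binding site, and the array gave S1pr3 a reading at background, described below.

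The deposited values were log2 levels per probe set. The median probe set read 6.06 to 6.24 by array, and any pair of arrays had r = 0.988 to 0.993 across probe sets, which are not independent replicates. Mef2c read 9.56, 9.73, 9.66 and 10.03 on EKO arrays 1 to 4, against 9.62, 9.79, 9.88 and 9.80 on control arrays 1 to 4. The groups overlapped (difference -0.03, limma adjusted p = 0.946). Its probe set summarises the whole gene and the labels do not name the deleted exons, so this reading does not check the deletion. The 10 endothelial markers had list means of 12.71 to 12.98 on EKO arrays and 12.73 to 13.01 on control arrays. Within the list, Pecam1 and Cdh5 read 16.23 or higher on every array, while Kdr read 7.22 or lower and Robo4 6.54 or lower. RNA of other cells was present as well. The adipocyte marker mean ran from 8.0 to 10.1 on EKO arrays and from 8.40 to 10.8 on control arrays, and the brown fat gene Ucp1 read from 11.14 on EKO array 2 to 16.73 on control array 3.

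The 9 genes split into 3 with a strong signal and 6 near the array's background. S1pr1, Calcrl and Ramp2 read above the median of the 5222 controls labelled neg (7.34 to 7.45 by array) on all 8 arrays, and above all 23 background probe sets on each. The other 6 read below that median on all 8 arrays. Of these, Aplnr read above all 23 background probe sets on 4 arrays, S1pr2 on 3 and Ramp3 on 1, and S1pr3, Adm and Apln on none. On average over the arrays 3.16%, 1.83% and 2.42% of the neg control sets read higher than S1pr1, Calcrl and Ramp2, while 56.8% read higher than Aplnr and 96.1% higher than S1pr3. Kdr, which encodes a VEGF receptor abundant in endothelium, also read below the median, between 6.42 and 7.22. A low reading here therefore did not show that a transcript was absent. Adm, Apln and S1pr3 had means below 6.14, the median of all probe sets, and were not among the 16232 genes tested.

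**Figure D1:**
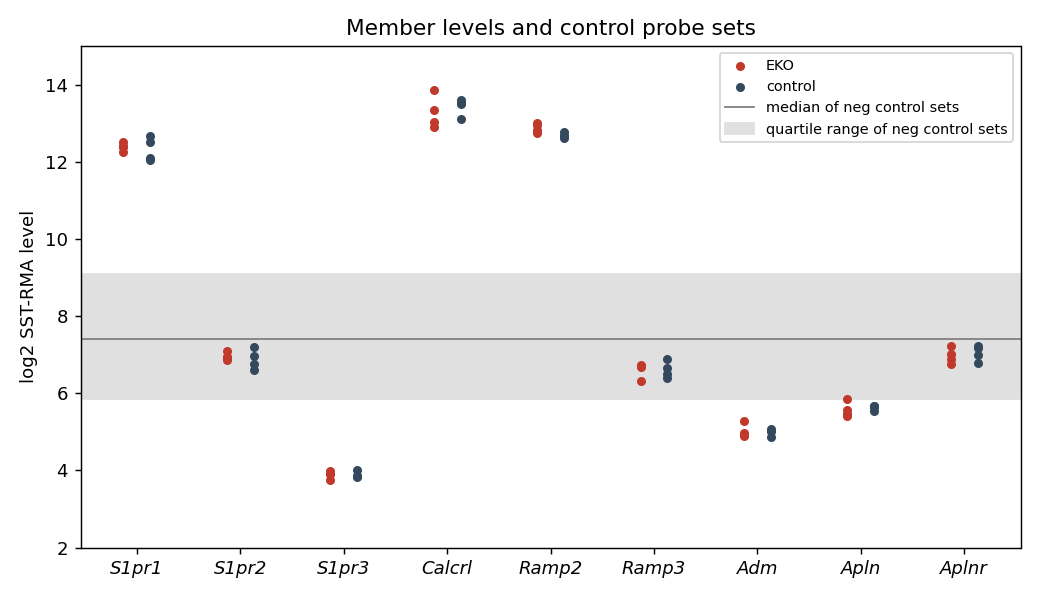
Log2 level of each of the 9 genes on the 4 EKO arrays (red) and the 4 control arrays (dark), with the median and the quartile range of the neg control probe sets. S1pr1, Calcrl and Ramp2 lie far above the band, and the other 6 genes lie below its median line.

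None of the 6 tested genes passed the test for a change after deletion of Mef2c. With limma 0 of the 6 had an adjusted p under 0.05, and 0 of all 16232 genes did (0% called, smallest adjusted p 0.478). At an unadjusted p under 0.05 there was 1 of the 6, Ramp2, where limma placed 1449 genes, or 8.93% of all. The 6 divided evenly, 3 higher and 3 lower (S1pr1, S1pr2, Ramp3 and Aplnr had the other sign without some single array), with a median difference of 0.025 beside -0.02 over all genes tested. In none of the 9 were the groups apart, beside 6.08% of the genes tested and 5.91% of all 30063 genes. Among so few genes, none is close to that share. A p that misses the threshold does not show that the groups were alike, so the intervals are given with each gene. In RNA flushed from an aorta, fewer cells of a type and less RNA per cell cannot be told apart.

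**Figure D2:**
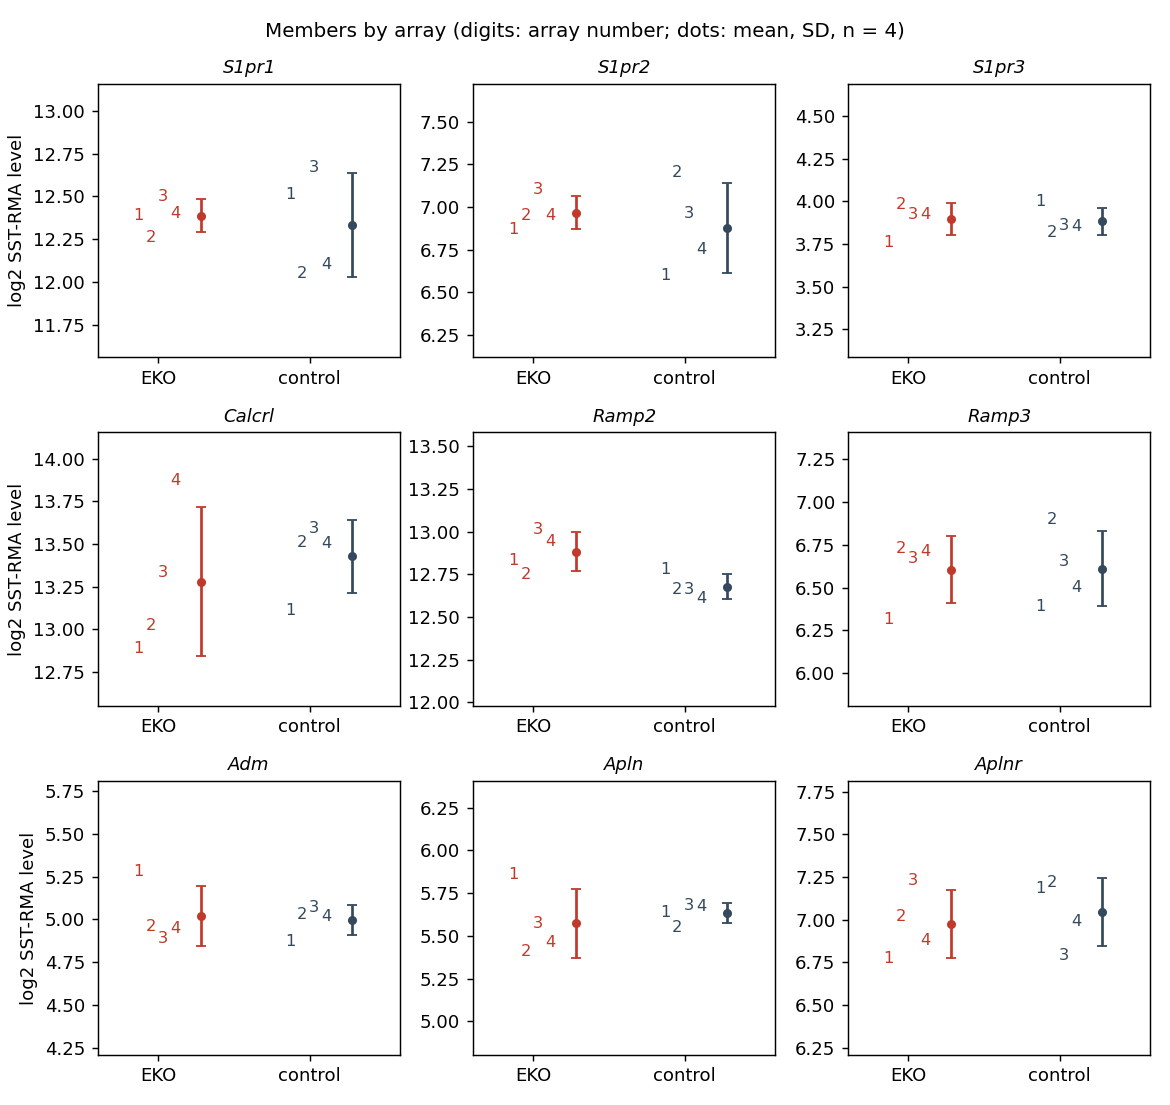
Log2 level of each gene by array, with the array number as the plotting symbol and the mean and SD of each group beside it (n = 4). Every panel spans the same range of log2 units. The groups overlap in all 9 panels, and Ramp2 is the gene in which 3 EKO arrays lie above every control array.

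S1pr1, the main S1P receptor of endothelium, was read well above background, unlike S1pr2 and S1pr3. It read 12.39, 12.26, 12.50 and 12.40 on EKO arrays 1 to 4, against 12.51, 12.05, 12.67 and 12.10 on control arrays 1 to 4. All EKO values fell inside the control range, and the control arrays were the more scattered. The mean was 12.39 ± 0.10 in EKO and 12.33 ± 0.30 in control aortas (SD, n = 4 each), a log2 difference of 0.05 (SE 0.144, limma adjusted p = 0.914) with a 95% confidence interval of -0.27 to 0.38. The interval spans levels in EKO aortas from 0.827 to 1.30 times those of control aortas. Without control array 2 the difference was -0.0393, and without control array 4 it was -0.0227.

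S1pr2, the S1P receptor that loosens endothelial junctions, read 6.87, 6.95, 7.10 and 6.95 on EKO arrays and 6.60, 7.20, 6.96 and 6.75 on control arrays 1 to 4. The EKO values again lay within the control range. The log2 difference was 0.09 (SE 0.128, interval -0.20 to 0.38, limma adjusted p = 0.827), and -0.0011 without control array 1, the lowest of the 8. S1pr3, a receptor of both endothelium and smooth muscle, read 3.76, 3.98, 3.92 and 3.92 on EKO arrays, against 4.0, 3.82, 3.86 and 3.85 on control arrays 1 to 4. Its whole range over the 8 arrays was 0.24, and the means were 3.89 ± 0.10 in EKO and 3.88 ± 0.08 in control arrays (SD, n = 4 each). This range lies among the background probe sets, which read from 2.73 to 7.66, so these readings do not show whether S1pr3 differed.

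Of the adrenomedullin receptor genes, Ramp2 had the smallest p. It encodes the partner that carries Calcrl to the cell surface and makes it an adrenomedullin receptor. Ramp2 read 12.83, 12.75, 13.01 and 12.94 on EKO arrays 1 to 4, against 12.78, 12.66, 12.66 and 12.61 on control arrays 1 to 4. EKO arrays 1, 3 and 4 lay above every control array, and EKO array 2 lay just under control array 1. The mean was 12.88 ± 0.12 in EKO and 12.68 ± 0.07 in control aortas (SD, n = 4 each), a log2 difference of 0.21 (SE 0.0798, interval 0.02 to 0.39), or 1.15 times the control level. The unadjusted limma p was 0.0313, the limma adjusted p 0.545 and the two-sided exact permutation p 0.0571, where 70 assignments allow a smallest p of 0.0286. The difference stayed above 0 in all 20 alternatives, between 0.1619 and 0.2512, and the adjusted p lay between 0.383 and 0.83 in them. The unadjusted limma p did not stay under 0.05. It was above that in 6 of the 20, namely with a replicate block and without EKO array 3 or 4 or control array 2, 3 or 4, and reached 0.0849. With the mean of the endothelial markers as a covariate the log2 difference of Ramp2 was 0.186, and this setting was not among those 6. Within that list Emcn varied most, from 8.18 to 10.85 over the arrays, while Pecam1 read 18.07 to 18.23. The covariate therefore follows Emcn more than the other markers.

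Calcrl, the receptor that Ramp2 serves, was lower in the mean but scattered widely. It read 12.89, 13.02, 13.33 and 13.87 on EKO arrays 1 to 4, against 13.11, 13.51, 13.59 and 13.50 on control arrays 1 to 4. EKO arrays 1 and 2 were the lowest of all 8, and EKO array 4 was the highest. The mean was 13.28 ± 0.43 in EKO and 13.43 ± 0.21 in control aortas (SD, n = 4 each), a log2 difference of -0.15 (SE 0.210, interval -0.63 to 0.33, limma adjusted p = 0.823), the widest interval of the 6 tested genes. Its size depended on which array was left out. The difference was -0.0243 without EKO array 1, -0.0646 without EKO array 2, -0.3479 without EKO array 4, -0.2568 without control array 1 and -0.0988 without control array 3. With smooth muscle markers as a covariate it was -0.0405.

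Ramp3, the other partner of Calcrl, read 6.31, 6.73, 6.67 and 6.71 on EKO arrays and 6.39, 6.90, 6.65 and 6.50 on control arrays 1 to 4. EKO array 1 stood below all others. The means were 6.61 ± 0.20 in EKO and 6.61 ± 0.22 in control arrays (SD, n = 4 each; log2 difference -0.0048, interval -0.31 to 0.30, limma adjusted p = 0.994), and without EKO array 1 the difference was 0.0947. Removing control array 1, the lowest control array, gave -0.0785, removing control array 2, the highest, gave 0.0909, and for the other arrays values lay between -0.0454 and 0.0085.

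The ligand genes read at background in both groups. Adm, which encodes adrenomedullin, read 5.28, 4.96, 4.89 and 4.95 on EKO arrays and 4.87, 5.03, 5.07 and 5.02 on control arrays 1 to 4. Apln, which encodes apelin, read 5.86, 5.41, 5.57 and 5.46 on EKO arrays, against 5.64, 5.55, 5.68 and 5.67 on control arrays 1 to 4. EKO array 1 was the highest of the 8 for each ligand, and the other 3 EKO arrays lay at 4.96 or lower for Adm and at 5.57 or lower for Apln. Over all arrays the log2 difference was 0.03 for Adm (two-sided exact permutation p = 0.857) and -0.06 for Apln (p = 0.60, same test). Without EKO array 1 these were -0.06 and -0.156. That array also had the highest smooth muscle marker mean, 8.69, against 8.02 to 8.29 on the other EKO arrays and 7.83 to 8.34 on control arrays, and its part in these values was not tested.

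Aplnr, the receptor of apelin, read 6.77, 7.02, 7.23 and 6.88 on EKO arrays and 7.18, 7.22, 6.79 and 6.99 on control arrays 1 to 4. High and low arrays were found in each group. The mean was 6.98 ± 0.20 in EKO and 7.04 ± 0.20 in control arrays (SD, n = 4 each), a log2 difference of -0.07 (SE 0.130, interval -0.36 to 0.23, limma adjusted p = 0.877). The difference was 0.0022 without EKO array 1, -0.153 without control array 3, and -0.1551 with adipocyte markers as a covariate.

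No other gene of these pathways passed either. Of 40 listed genes, 34 were found among the singly named probe sets, and 26 of these passed the filter on level. With limma 0 of the 26 passed, beside 0% of all genes, with 10 higher and 16 lower and a median difference of -0.06 beside -0.02 over all genes tested. At an unadjusted p under 0.05 there was 1 of the 26, Crcp, where 8.93% of all genes lay. The groups were apart in none of the 26, beside 6.08% of all genes tested.

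**Figure D3:**
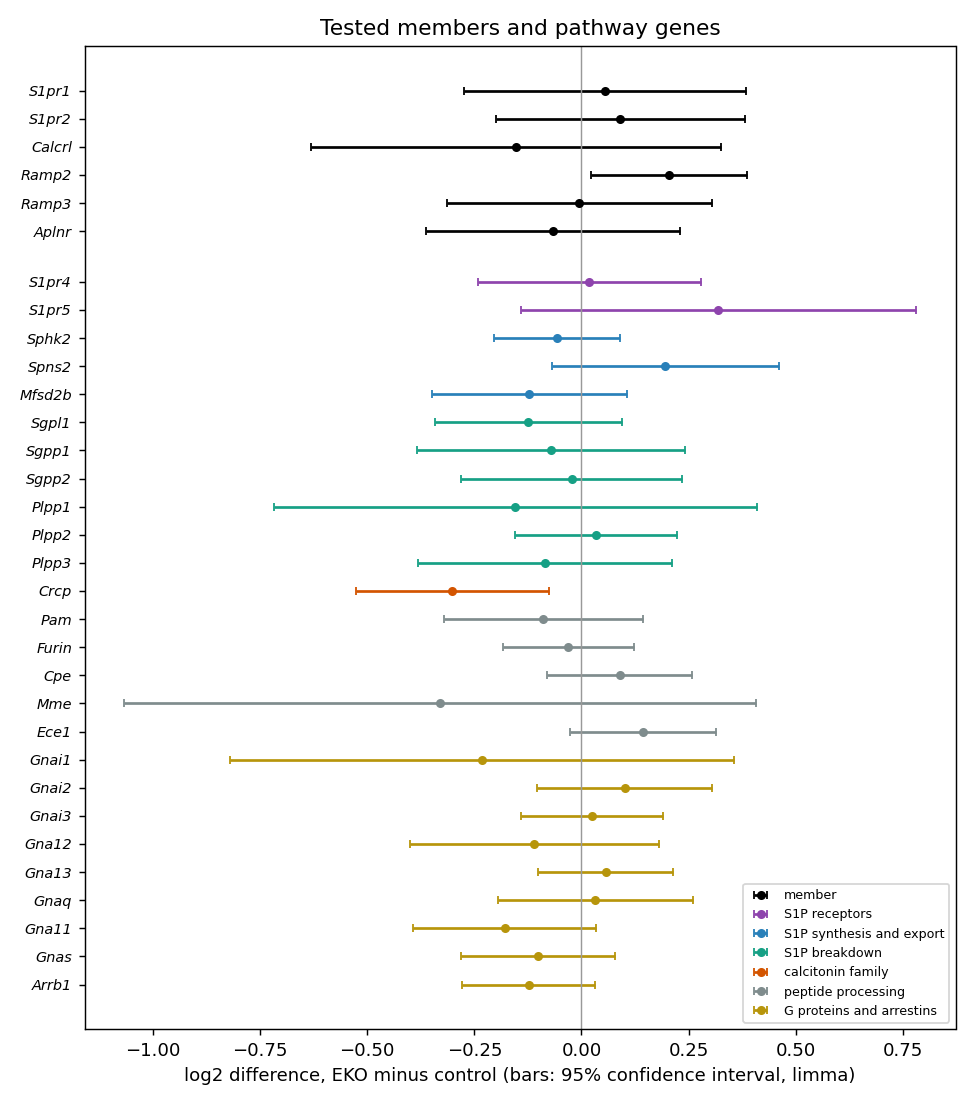
Log2 difference, EKO minus control, with its 95% confidence interval from limma, for the 6 tested genes of the 3 receptor systems (top) and the 26 tested genes of the same pathways, coloured by role. The intervals of Ramp2 (0.02 to 0.39) and Crcp lie clear of 0 before adjustment, and every other interval crosses 0. Crcp read below the neg control median.

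The 2 remaining S1P receptors were S1pr5 at 0.32 (SE 0.202, limma adjusted p = 0.636) and S1pr4, a receptor of blood cells, at 0.02. S1pr5 read 7.15, 6.62, 6.13 and 6.73 on EKO arrays and 6.38, 6.04, 6.41 and 6.51 on control arrays 1 to 4, below the median of the neg control sets. S1pr4 read from 7.96 to 8.38 over all arrays, above that median. For making and exporting S1P, the kinase gene Sphk2 differed by -0.06 and the endothelial exporter gene Spns2 by 0.20 (SE 0.116, limma adjusted p = 0.624). Spns2 read 7.83, 7.95, 7.87 and 7.60 in EKO aortas, against 7.83, 7.37, 7.59 and 7.68 in control aortas 1 to 4, with overlap. Mfsd2b, the exporter of red cells and platelets, differed by -0.12, and the red cell marker Alas2 averaged 13.38 ± 0.30 in EKO and 14.40 ± 0.79 in control arrays (SD, n = 4 each), whose part in that value was not tested. Apom, which encodes the carrier of S1P on lipoproteins, was not tested, since its means of 5.85 in EKO and 5.65 in control arrays lay under the level filter. Its 4 EKO values (5.97, 5.77, 5.94 and 5.74) all exceeded its 4 control values (5.71, 5.61, 5.70 and 5.59), where 5.91% of all 30063 genes had groups apart in either direction.

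Of the 6 genes for breaking down S1P, 5 were lower and 1 higher, by -0.15 to 0.03, and none passed. They were the lyase gene Sgpl1 (-0.12), the phosphatase genes Sgpp1 (-0.07) and Sgpp2 (-0.02), and the genes of lipid phosphatases of the cell surface Plpp1 (-0.15), Plpp3 (-0.08) and Plpp2 (0.03). Plpp1 and Plpp3 averaged 14.36 and 14.01 in EKO and 14.52 and 14.09 in control aortas. In the calcitonin family, Crcp alone was tested. It encodes a protein that aids signalling of the calcitonin gene-related peptide receptor and is also a subunit of RNA polymerase III. Crcp read 6.81, 6.64, 6.57 and 6.77 in EKO aortas, against 7.05, 6.76, 7.08 and 7.11 in control aortas 1 to 4, and differed by -0.30 (SE 0.0988, limma adjusted p = 0.516). Adm2, Calcb, Calcr and Ramp1 had means between 4.15 and 5.49 in either group and were not tested. Of the 2 genes on the apelin system list, Gpr25 alone had a singly named probe set. Its means lay under the level filter, so 0 genes of that list were tested.

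Peptide hormones such as adrenomedullin and apelin are cut from precursors and trimmed by peptidases. Of the 5 tested genes of this kind 2 were higher and 3 lower, and none passed. Ece1, the endothelin-converting enzyme, differed by 0.14 (SE 0.0747, limma adjusted p = 0.601). Pam, which adds the amide end that adrenomedullin needs, averaged 15.25 in EKO and 15.34 in control aortas, a difference of -0.09. The peptidase gene Mme was the most variable, at 8.07, 7.04, 7.44 and 7.64 in EKO aortas and 7.62, 7.24, 8.73 and 7.92 in control aortas 1 to 4. Cpe differed by 0.09 and Furin by -0.03. Of the 9 tested G protein and arrestin genes, 4 were higher and 5 lower, within -0.23 to 0.10, and none passed. Gnai2, the gene of a Gi subunit, differed by 0.10, Gnas, the gene of the subunit through which Calcrl raises cyclic AMP, by -0.10, and Arrb1, which encodes an arrestin, by -0.12.

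The 9 genes were set against the means of 4 marker lists over the 8 arrays, 36 relations in all, because the flushed RNA held other cells. None passed after adjustment over the 36 (smallest adjusted exact permutation p 0.561 for Pearson and 0.427 for Spearman). At an unadjusted p under 0.05 there were 2 by Pearson and 1 by Spearman. The relations named here were chosen after their values were seen. The Pearson relations were those of Adm and S1pr3 with smooth muscle markers. S1pr3 had r = -0.724 (exact permutation p = 0.0395, adjusted 0.561) and Spearman coefficient = -0.667 (exact permutation p = 0.0831, adjusted 0.427). Its r was -0.0253 without the 2 arrays most distant from the median of the marker mean, so it rests on them. Within EKO arrays, these 2 not left out, r of S1pr3 was -0.787, and within control arrays it was -0.959 (n = 4 each). Aplnr was lower where adipocyte markers were higher, with Pearson r = -0.722 (exact permutation p = 0.0545, adjusted 0.561) and Spearman coefficient = -0.714 (exact permutation p = 0.0576, adjusted 0.427). With the 2 arrays at the ends of the adipocyte scale left out, r was -0.793. It was -0.71 within EKO arrays and -0.936 within control arrays (n = 4 each).

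Apln ran the other way, with Pearson r = 0.654 against adipocyte markers (exact permutation p = 0.0763, adjusted 0.561) and Spearman coefficient = 0.786 (exact permutation p = 0.0279, adjusted 0.427). Its r was 0.513 without those 2 arrays, 0.733 within EKO arrays and 0.886 within control arrays. Against fibroblast markers Apln had Pearson r = 0.631 (exact permutation p = 0.0917, adjusted 0.561). Without the 2 arrays most distant from the median of that mean r was 0.793. Aplnr had r = -0.574 with fibroblast markers (exact permutation p = 0.142, adjusted 0.561). The fibroblast and adipocyte means were both highest on control arrays 3 and 4 and lowest on EKO array 2, and their parts were not separated. Adm had the smallest Pearson p, against smooth muscle markers, at r = 0.802 (exact permutation p = 0.0257, adjusted 0.561) and Spearman coefficient = 0.667 (exact permutation p = 0.0831, adjusted 0.427). With the 2 arrays most distant from the median of the marker mean left out r was -0.0667, so this relation rests on them. Within EKO arrays r was 0.862 and within control arrays 0.847. Aplnr, Apln and Adm read below the neg control median, and their range over the arrays was 0.42 to 0.46 in log2 units. Apln and Adm never read above all background probe sets, and Aplnr did so on 4 of the 8 arrays. Of the strongly read genes, Ramp2 had r = 0.554 with the endothelial marker mean (exact permutation p = 0.156, adjusted 0.561) and Spearman coefficient = 0.571 (exact permutation p = 0.151, adjusted 0.495), with r = 0.533 after the same omission for its marker list. Emcn varied most among the genes of that mean.

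**Figure D4:**
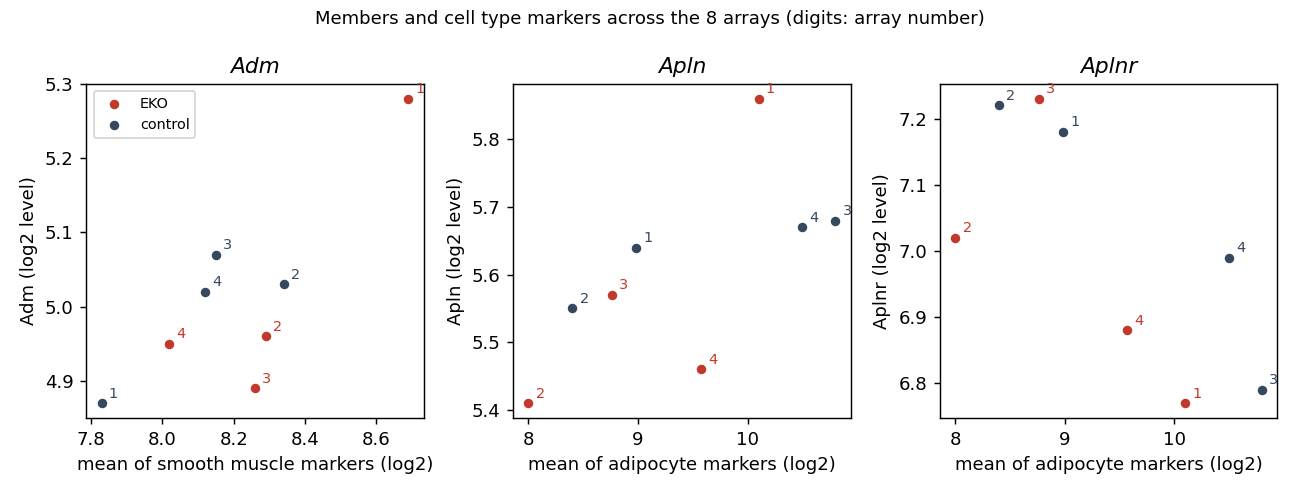
Log2 level of Adm against the mean of the smooth muscle markers, and of Apln and Aplnr against the mean of the adipocyte markers, for the 8 arrays (digits are array numbers). EKO array 1 stands alone at the upper right of the Adm panel, Apln is higher on arrays with more adipocyte signal, and Aplnr is lower there. Apln and Aplnr had relations of the same signs with fibroblast markers, which are not drawn.

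The tested genes whose profile over the 8 arrays was most like that of each strongly read gene were listed as a description. Calcrl was followed most closely by Cttnbp2 (Pearson r = 0.973), Phactr2 (0.968) and the polycomb gene Bmi1 (0.961), each lowest on EKO array 1 and highest on EKO array 4 as Calcrl was. For Ramp2 the 3 nearest were Prr5 (0.919), the calcineurin subunit gene Ppp3r1 (0.918) and Klrg2 (0.90). For S1pr1 they were Cebpd, a transcription factor gene (0.914), Arhgap23 (0.903) and Kbtbd2 (0.901). Of the 10946 genes searched, 49 had an r of at least 0.9 with Calcrl and 3 each with Ramp2 and S1pr1. With 8 arrays and so many genes a high r is easily met. Of the ligands, Apln had 36 such genes among 10947, led by the ephrin gene Efnb1 (0.98), and Adm had 13, led by the keratin gene Krt18 (0.972). Krt18, like Adm, was highest on EKO array 1, at 11.97, against 10.65 to 11.26 on the other 7 arrays.

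**Figure D5:**
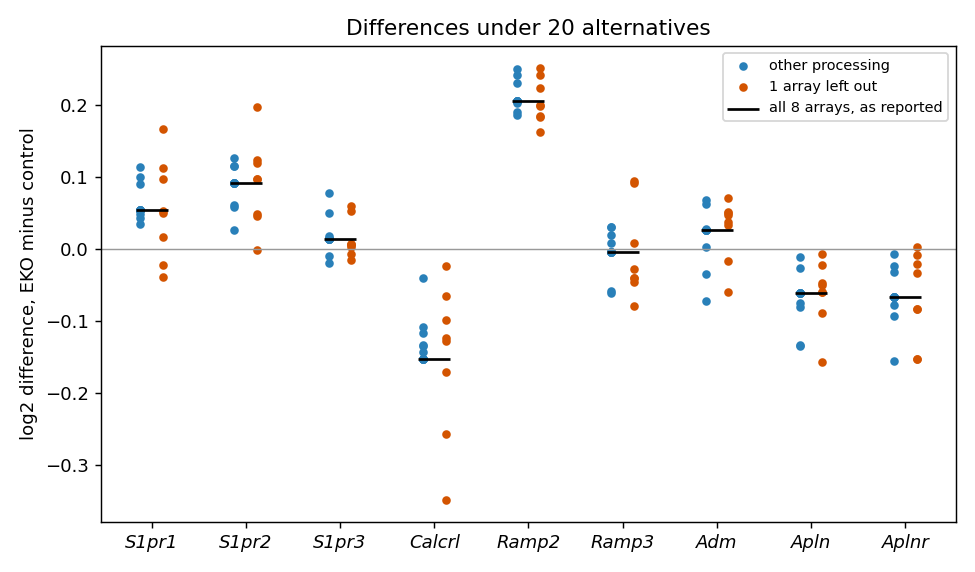
Log2 difference, EKO minus control, for each of the 9 genes as reported (black bar), under 12 other ways of processing (blue) and with each of the 8 arrays left out (orange). Ramp2 stays above 0 throughout, Calcrl and Apln stay below 0, and Calcrl spreads most widely. Single points of S1pr1, S1pr2, Apln and Aplnr lie as far from 0 as the reported value of Calcrl.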

How the data were processed

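RNA from 8 aortas was measured on 1 array each. The values deposited by the authors are log2 levels per probe set. Per the labels they come from the SST-RMA method of the Expression Console software. The software version and genome build are not given in the sources used here, nor are slides or dates. SST-RMA includes background correction and quantile normalization, so overall signal differences between arrays were adjusted before deposit. The array medians of the deposited values still ran from 6.06 to 6.24.

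Of 72688 probe sets, 6732 were controls. The platform annotation gave 30604 probe sets 1 symbol (repeats of a symbol counted once), 2146 several, and did not list 33206. Symbols were updated through RefSeq (GRCm38.p6), matching 30602. For 429 symbols with several probe sets, the one with the highest mean was used. Genes with a mean above 6.14 (16232) were tested with limma 3.58.1 in R 4.3.3, without covariates, with Benjamini-Hochberg adjustment over all of them and a threshold of 0.05. Single values were compared with exact permutation tests (scipy 1.17.1). The number of arrays limits the precision.

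The 9 genes and the lists were chosen with earlier results of these data known. Genes named are the 9, genes of the pathway and marker lists, and the 3 tested genes most like each of the 9, leaving out predicted, clone, pseudogene, olfactory and small RNA symbols. Of 40 pathway genes, 6 had no probe set with 1 symbol. The alternatives covered level filter, normalization, variance model, array weights, probe set choice, marker covariates, replicate number as a block and each array left out. Background correction and slide could not be varied from these values.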

Additional observations from a re-analysis of the deposited data

Results flagged for a closer look

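In 104 sets of 4 arrays (the 9 genes, 34 pathway genes and 9 marker means, in each group), 6 held an array set apart from the other 3 by a gap beyond the 95% critical value of Dixon's test, where chance gives about 5%. Ramp3 was 6.31 on EKO array 1, against 6.67 to 6.73 on the other EKO arrays. Gnaq was 13.11 on EKO array 4, against 12.79 to 12.83. Among control arrays, Sgpp2 was 6.97 on array 1, against 6.70 to 6.74 on the others. Crcp was 6.76 on control array 2, against 7.05 to 7.11, and Plpp2 was 9.09 on control array 4, against 9.20 to 9.22. The mesothelial marker mean was 8.17 on control array 4, against 5.91 to 6.23.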

How the results depend on the processing

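No gene, among the 9 or among all tested, passed under any of the 20 alternatives (0 calls in each; the smallest adjusted p of any gene lay between 0.169 and 0.798). Counts at an unadjusted p under 0.05 were 1449 with limma and 1469 without moderation. Ramp2 and Calcrl kept their sign in all 20. Ramp3, at -0.0048 as reported, was 0.0305 when arrays were centred on their median, 0.0191 with array weights, 0.0078 with smooth muscle and 0.0305 with endothelial markers as a covariate. Leaving out single arrays gave -0.0785 to 0.0947 for Ramp3, -0.0393 to 0.1664 for S1pr1, -0.0011 to 0.1965 for S1pr2 and -0.153 to 0.0022 for Aplnr. The cause was not tested. Without a filter on level, 1777 of 30063 genes had groups apart, against 987 of 16232, because more genes were counted. S1pr3, Adm and Apln then had adjusted limma p of 0.955, 0.935 and 0.838. With the replicate number as a block Ramp2 was 0.2052 (limma adjusted p = 0.647) and 0 genes passed. Deviations of same-numbered arrays from their group means had r = -0.16, 0.206, -0.242 and 0.13, of mixed sign. So few values cannot decide whether the numbers pair the aortas. Signal over background limits the 6 genes that read below the neg control median.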

Other observations

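EKO array 1 was the highest or the lowest of the 8 arrays for 6 of the 9 genes. It was highest for Adm and Apln and lowest for S1pr3, Calcrl, Ramp3 and Aplnr. Of these, Calcrl alone read above the neg control median. Control arrays 1 and 2 followed with 3 genes each, and each of the others had 1 or 2. How often each array was at an extreme over all genes was not counted, so these counts have no background. On EKO array 1 the smooth muscle gene Acta2 read 12.39, against 10.14 to 11.53 on the other EKO arrays and 9.68 to 11.53 on control arrays. Of the same marker list, Tagln (11.03) and Smtn (9.53) were also highest on that array. Myh11 (6.93), Cnn1 (6.29) and Lmod1 (5.97), which read below the neg control median, lay there within the range of the other arrays. The fibroblast marker mean of EKO array 1 was 9.29, against 8.51 to 8.94 on the other EKO arrays and 8.84 to 9.74 on control arrays. The part of these cells in the readings was not tested.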
